A study of Rattus norvegicus with 21 samples.

Results

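Flt1, Esm1, Egfl6, Egfl7, Erg, Icam2, Esam, Angpt1 and Apln are genes of blood vessel growth and of the endothelium, the cell layer that lines vessels. Here they were followed in mesenchymal stem cells from rat bone marrow, multipotent stromal cells able to give rise to bone, cartilage and fat. They were chosen by gene symbol, with their read counts in these libraries known. All 9 were found among the 9998 genes of the table, and all 9 had enough counts to enter the fit of 6659 genes. Because the choice used the counts, the values of these 9 genes are given as a description, without p-values.

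All cells carried the wild-type genotype. The 21 libraries of total RNA formed 7 groups of 3. Control had no treatment entered. The remaining 6 groups were labelled SFSN, the self-feedback synaptic networks of the series title, and each of them carried the name of a cell type: SFSN-EC stood for endothelial cells, SFSN-FB for fibroblasts, SFSN-Adipo for adipocytes, SFSN-Ot for osteoblasts, SFSN-Neu for neuron-like cells and SFSN-TC for tendon cells. The labels give neither the age of the animals nor a time, and do not say whether replicates were separate cultures or animals, so p-values cover only the spread of these samples, possibly a technical one. The comparisons ask how each SFSN group differed from Control, and whether the group named after endothelial cells differed from the other SFSN groups.

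New vessels grow when endothelial cells sense vascular endothelial growth factors through receptor tyrosine kinases, loosen their junctions and migrate behind leading tip cells. Flt1 binds several of these growth factors and, with its weak kinase and a secreted form, is known to limit the signal that passes through Kdr. Marrow stromal cells are not endothelial, but they supply vessel-acting factors, among them Angpt1, the ligand that steadies resting vessels through the receptor Tek. Because several such genes are used by stromal cells as well, a transcript of this set in a stromal sample need not come from an endothelial cell.

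Levels are given in CPM, the depth-scaled count unit, computed on the genes in hand and scaled between libraries by TMM. Library totals over these genes, a part of each library, ran from 8113600 to 8934239 counts, so values near 1 CPM rest on few reads. Divided by its degrees of freedom, the chi-square of the counts was 41.43 to 42.58 between SFSN-EC 1 and the other SFSN-EC libraries, 21.56 to 23.98 between SFSN-Neu 2 and the other SFSN-Neu libraries, and 2.165 to 14.16 for all other pairs of replicates. Fold changes are log2 values ± SE from the fit of all 21 libraries, 3 libraries against 3 unless stated.

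Several defining endothelial markers were at or near 0 in every group, including SFSN-EC, while others were low but detected. Cdh5, the cadherin of endothelial junctions, had 1 count in each Control library and 0 to 4 counts in the SFSN libraries. Kdr, the main signalling receptor for vascular endothelial growth factor, had 1 to 3 counts in Control and 1 to 8 in SFSN. Emcn, a surface sialomucin of capillaries and veins, had 0 to 1 counts in all 21 libraries, and Ecscr, an endothelial surface regulator, had 1 to 7. Cldn5, the claudin of endothelial tight junctions, was not analysed here. Etv2, the early factor of endothelial specification, had no count in any library. Eng, a TGF-beta co-receptor that mesenchymal stem cells also carry, was far more abundant, with 1116 to 1169 counts in Control and 1251 to 1475 in SFSN. Cd93, a lectin-like receptor of endothelium and myeloid cells, had 21 to 27 counts in Control and 36 to 76 in SFSN, and Cd34, Clec14a and Jam2 also had counts in every library. Pecam1 and Tek were not analysed here. The set is described as genes, and the presence or absence of endothelial cells is not inferred from it.

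Compared per transcript, the 9 genes covered a wide range of levels. In Control Esm1 stood highest at 93.8 ± 4.40 TPM (SD, n = 3), followed by Egfl6 at 17.2 ± 0.824 TPM, Egfl7 at 10.9 ± 0.427 TPM and Erg at 7.33 ± 0.461 TPM. Flt1 (4.09 TPM) and Angpt1 (3.92 TPM) were next, and Icam2 (0.733 TPM), Esam (0.687 TPM) and Apln (0.310 TPM) were lowest. In the 18 SFSN libraries the median was 25.4 TPM for Esm1, 2.44 TPM for Egfl6 and 0.730 TPM for Flt1, so that Flt1, level with Angpt1 in Control, stood below Angpt1 (5.55 TPM), Esam (1.05 TPM) and Apln (1.02 TPM).

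**Figure D1:**
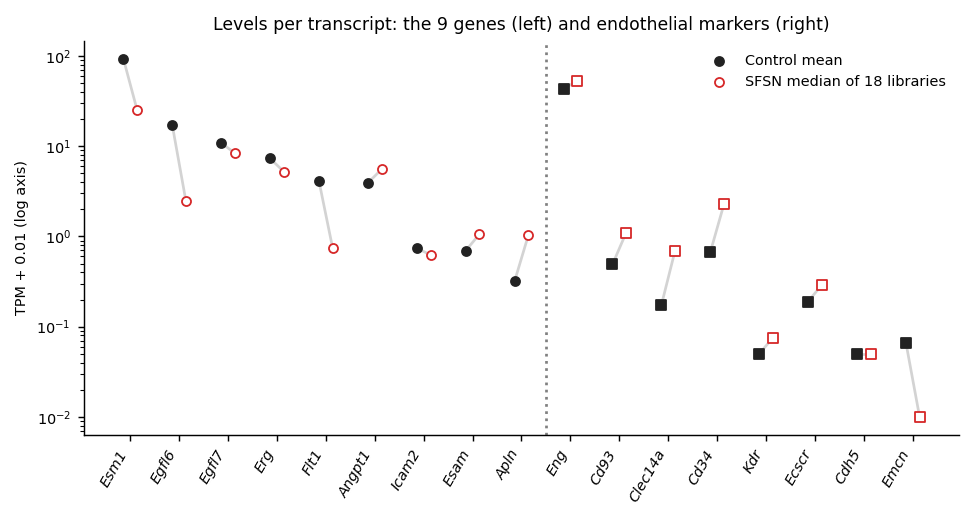
Levels in TPM plus 0.01 on a log axis for the 9 genes (circles) and for 8 endothelial markers (squares), with the Control mean filled and the median of the 18 SFSN libraries open. Esm1 led in Control at 93.8 TPM, while among the markers Clec14a, Kdr, Ecscr, Cdh5 and Emcn lay below 1 TPM in both.

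Against Control the set split: 3 genes were several-fold lower in all 6 SFSN groups, Egfl7 and Erg were moderately lower, Angpt1 was slightly higher and Apln clearly higher, and Icam2 and Esam were too sparse to place. Averaged over the 6 SFSN groups, 5 of the 9 passed the threshold of the fit (adjusted p under 0.05, edgeR quasi-likelihood) as lower and 2 as higher. Among all 6659 genes tested 45.9% passed it, 22.4% as lower and 23.5% as higher. In CPM all 18 SFSN libraries lay below all 3 Control libraries for 5 of the 9 genes, against 11.2% of all genes, and above them for 1, against 9.81%. Taken group by group, 4 of the 9 were called lower in all 6 groups (8.97% of all genes) and 1 higher in all 6 (8.5%). Since the genes were picked with these values known, nothing is read from the counts. As the libraries are bulk RNA, fewer cells of a type and less RNA per cell cannot be told apart.

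Group by group, 5 members were called lower and 2 higher in SFSN-EC, where 33.3% of all genes were called, 15.6% lower and 17.7% higher. In SFSN-Ot the counts were also 5 and 2 (39.5% of all genes called, 19.3% lower and 20.2% higher), as they were in SFSN-Neu (38.1% called, 17.9% and 20.1%) and in SFSN-Adipo (36.5% called, 16.8% and 19.7%). SFSN-TC had 5 lower and 1 higher (38.1% called, 18.8% and 19.3%), the difference being Angpt1. SFSN-FB had 4 lower and 2 higher (42.7% called, 21.2% and 21.5%), the difference being Erg. The 6 comparisons share the same 3 Control libraries, so they do not repeat each other independently.

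**Figure D2:**
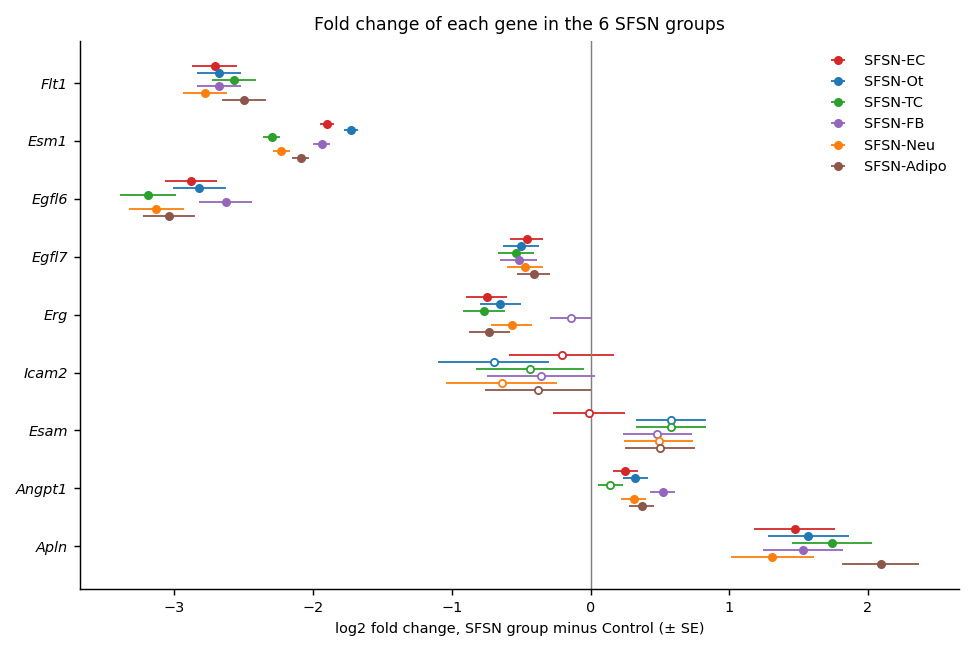
Log2 fold change of each gene in each SFSN group minus Control, ± SE, with filled points past an adjusted p of 0.05 in the fit and open points not. Flt1, Esm1 and Egfl6 lie between -3.19 and -1.73 in all 6 groups, and Apln between 1.31 and 2.09.

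Among the receptors, Flt1 was lower in all SFSN groups. Its level was 35.4, 37.4 and 30.9 CPM in the 3 Control libraries. It was 4.74, 4.59 and 6.49 CPM in SFSN-EC, 6.37, 5.12 and 4.64 CPM in SFSN-Ot, and 5.33, 6.18 and 5.91 CPM in SFSN-TC. The other groups lay in the same narrow band: 4.77, 6.21 and 5.15 CPM in SFSN-FB, 5.33, 5.88 and 3.84 CPM in SFSN-Neu, and 5.76, 6.40 and 6.08 CPM in SFSN-Adipo. No SFSN library came near Control, and the libraries of neighbouring SFSN groups in the order of levels overlapped throughout. The fold change ran from -2.78 ± 0.16 in SFSN-Neu to -2.50 ± 0.16 in SFSN-Adipo, and for the mean of the SFSN groups it was -2.65 ± 0.10, a 6.29-fold lower level. In SFSN-EC, the group named after endothelial cells, Flt1 stood at -0.07 ± 0.13 relative to the mean of the other 5 SFSN groups.

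To show the start regions of genes that were strongly lower (Flt1, Esm1), moderately lower (Erg) and higher (Apln), the promoters of these 4 genes are printed from RefSeq's table (build GRCr8, 250 bases before to 50 bases after the annotated start). The deposited counts were made on the older build Rnor_6.0. Of the 9 genes, 5 had an entry, and the fifth, Egfl7, is not printed because it has a pair of starts, which makes 6 windows in all. Capitals mark AGGAAG, a core recognised by ETS factors such as Erg, GCGTG, a core of hypoxia response elements, and TGACGTCA, the cyclic AMP response element, on either strand. Each sequence runs 5′ to 3′ along the gene, and positions count from 1 at the first base of the gene, with negative numbers before it.
Flt1 promoter, GRCr8 chr12:12333180-12333479, plus strand: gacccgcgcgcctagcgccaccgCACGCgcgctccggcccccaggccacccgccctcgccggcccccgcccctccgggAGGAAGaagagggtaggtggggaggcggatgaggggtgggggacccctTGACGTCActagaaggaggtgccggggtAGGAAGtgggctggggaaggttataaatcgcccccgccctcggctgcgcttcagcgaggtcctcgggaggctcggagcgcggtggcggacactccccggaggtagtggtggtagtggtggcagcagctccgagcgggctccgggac
Esm1 promoter, GRCr8 chr2:46609003-46609302, plus strand: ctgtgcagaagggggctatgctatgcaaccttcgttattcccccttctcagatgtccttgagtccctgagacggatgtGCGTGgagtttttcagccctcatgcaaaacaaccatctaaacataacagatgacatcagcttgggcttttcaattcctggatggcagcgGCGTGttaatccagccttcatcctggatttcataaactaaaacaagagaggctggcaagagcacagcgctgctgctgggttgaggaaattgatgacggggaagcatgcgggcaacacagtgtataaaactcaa
Erg promoter, GRCr8 chr11:48251517-48251816, minus strand: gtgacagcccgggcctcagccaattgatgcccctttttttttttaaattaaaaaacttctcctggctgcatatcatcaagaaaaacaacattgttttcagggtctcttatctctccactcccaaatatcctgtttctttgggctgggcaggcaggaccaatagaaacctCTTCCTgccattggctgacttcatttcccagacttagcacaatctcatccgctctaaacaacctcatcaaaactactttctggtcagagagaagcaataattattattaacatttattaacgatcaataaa
Apln promoter, GRCr8 chrX:132091197-132091496, minus strand: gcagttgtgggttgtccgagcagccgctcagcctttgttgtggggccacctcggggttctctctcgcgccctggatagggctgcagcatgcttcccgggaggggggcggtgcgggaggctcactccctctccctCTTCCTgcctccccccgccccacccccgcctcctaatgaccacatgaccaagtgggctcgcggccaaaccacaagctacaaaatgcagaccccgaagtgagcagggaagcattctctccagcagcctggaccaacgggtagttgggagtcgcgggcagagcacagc

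The Flt1 window held AGGAAG at -172 and -96, TGACGTCA at -124, CACGC, the reverse complement of GCGTG, at -227 and TATAAA at -75. Esm1 had GCGTG at -172 and -83 and no AGGAAG, Erg had CTTCCT, the reverse complement of AGGAAG, at -81, and Apln had it at -116. Both strands of all 33469 rat promoters of the same length were searched with the same letters: 34.5% held AGGAAG, 29.7% GCGTG, 19.3% ACGTG, 7.33% TGANTCA (the AP-1 site), 1.83% TGACGTCA, 14.2% TATAAA and 33.1% GGGCGG (the Sp1 core). Of the 6 windows of this set, 4 held AGGAAG, 3 GCGTG, 1 TGACGTCA, 2 TATAAA and 3 GGGCGG, and neither ACGTG nor TGANTCA was among their letters. No marked match overlapped one of another motif. These matches describe the letters and are neither sites nor causes.

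Esm1 was the most abundant of the genes and the one with the tightest replicates. It encodes endocan, a secreted proteoglycan that marks tip cells in growing vessels. Control held 239, 243 and 233 CPM. SFSN-Ot was the highest SFSN group with 69.8, 73.5 and 72.2 CPM, followed by SFSN-EC with 64.0, 62.9 and 64.4 CPM and SFSN-FB with 62.6, 60.3 and 62.9 CPM. Lower still were SFSN-Adipo (56.9, 58.8 and 52.1 CPM), SFSN-Neu (49.1, 52.6 and 50.8 CPM) and SFSN-TC (49.4, 44.8 and 51.2 CPM). In this order Control and SFSN-Ot, SFSN-Ot and SFSN-EC, and SFSN-FB and SFSN-Adipo were separated by a gap between their libraries, while the other neighbours overlapped. The fold change ranged from -1.73 ± 0.05 in SFSN-Ot to -2.30 ± 0.06 in SFSN-TC, with a mean over the SFSN groups of -2.03 ± 0.04. Relative to the other 5 SFSN groups, averaged, SFSN-EC was higher by 0.16 ± 0.04, and this was the single member past the threshold in that comparison, where 6.01% of all genes were called, 3.17% higher and 2.84% lower. It was lost in 14 alternatives, among them leaving out any 1 library of SFSN-EC or Control, although its value stayed between 0.11 and 0.17.

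Egfl6, a secreted protein with EGF repeats and an integrin-binding motif that bone-forming cells also release, had the largest fold change of the set. Control stood at 58.2, 56.4 and 59.8 CPM. SFSN-EC held 7.22, 7.27 and 9.18 CPM, SFSN-Ot 5.42, 8.69 and 10.6 CPM, and SFSN-TC 8.55, 5.28 and 5.24 CPM. In SFSN-FB the values were 9.77, 9.07 and 9.34 CPM, in SFSN-Neu 6.73, 6.82 and 6.29 CPM, and in SFSN-Adipo 8.42, 5.95 and 6.75 CPM. Every SFSN library was far below Control, and each SFSN group overlapped its neighbour in the order. The mean fold change over the SFSN groups was -2.95 ± 0.12, from -3.19 ± 0.20 in SFSN-TC to -2.63 ± 0.19 in SFSN-FB.

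Egfl7, a related secreted protein that endothelial cells deposit around themselves, was lower by a much smaller amount. It stood at 27.2, 28.2 and 29.0 CPM in Control. SFSN-EC held 25.7, 18.1 and 17.7 CPM, and its high value came from SFSN-EC 1, which also differed most from its replicates over all genes. Without that library the fold change of SFSN-EC was -0.65 instead of -0.46. The other 15 SFSN libraries lay between 17.2 and 22.4 CPM. All 18 were below Control, and no pair of neighbouring SFSN groups was apart. The mean fold change was -0.48 ± 0.09, with groups between -0.54 ± 0.13 (SFSN-TC) and -0.41 ± 0.12 (SFSN-Adipo). Without scaling for composition, by total counts, the calls of Egfl7 in SFSN-EC, SFSN-Neu and SFSN-Adipo were lost at fold changes of -0.26, -0.25 and -0.21. The call in SFSN-EC was also lost without SFSN-EC 3 (-0.36), and the call in SFSN-Adipo without Control 3 or SFSN-Adipo 3 (-0.38 each).

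Erg, an ETS-family transcription factor that maintains endothelial identity and is also used in cartilage, separated SFSN-FB from the other SFSN groups. Control had 26.8, 26.8 and 27.6 CPM and SFSN-FB 25.5, 25.3 and 22.9 CPM. The remaining groups were SFSN-Neu with 20.3, 20.1 and 14.4 CPM, SFSN-Ot with 14.4, 17.1 and 20.2 CPM and SFSN-Adipo with 16.0, 18.9 and 14.1 CPM. SFSN-EC had 19.3, 14.2 and 14.9 CPM and SFSN-TC 17.7, 15.5 and 14.3 CPM. In CPM the SFSN-FB libraries thus lay between Control and the 15 libraries of the other 5 SFSN groups without touching either. In TPM they overlapped Control, at 6.87, 7.63 and 6.84 TPM against 7.83, 7.25 and 6.92 TPM. Over the alternatives the fold change of SFSN-FB ran from -0.16 to 0.04. The fold change was -0.14 ± 0.15 in SFSN-FB, the group that missed the threshold, and between -0.77 ± 0.15 (SFSN-TC) and -0.57 ± 0.15 (SFSN-Neu) elsewhere. Under total-count scaling the call of Erg in SFSN-Neu was lost at -0.35. Of the 9 genes, 3 differed among the 6 SFSN groups by the joint test of the fit (Esm1, Erg and Angpt1), where 34.1% of all genes did.

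The adhesion molecules of the set were scarcely expressed. Icam2, a constitutive ligand of leukocyte integrins on endothelium, had 8, 11 and 10 counts in Control and 4 to 13 counts in the SFSN libraries (median 7.5). Its level in CPM was below all of Control in 14 of the 18 SFSN libraries and above all of Control in 1. Esam, an adhesion molecule of endothelial tight junctions and platelets, had 12, 15 and 8 counts in Control and 12 to 22 in SFSN (median 17.0). All 3 libraries of SFSN-Ot, SFSN-TC and SFSN-Neu were below Control for Icam2, and all 3 of SFSN-TC were above it for Esam, while the other groups overlapped Control. Their mean fold changes were -0.45 ± 0.29 for Icam2 and 0.43 ± 0.20 for Esam, and neither passed the threshold. Esam did pass it under total-count scaling, at 0.62, and in limma on log2 TPM at a pseudocount of 0.1, at 0.57. Esam in SFSN-EC, at -0.01 ± 0.26, was the lowest of the 6 groups, and the others lay between 0.48 and 0.58.

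The ligands of the set were higher in the SFSN groups. Angpt1 stood at 23.4, 24.2 and 26.2 CPM in Control. SFSN-FB was highest with 32.7, 36.5 and 36.5 CPM, then SFSN-Adipo with 29.7, 33.2 and 32.4 CPM and SFSN-Ot with 30.8, 33.2 and 28.4 CPM. SFSN-Neu had 31.8, 28.5 and 31.4 CPM, SFSN-EC 25.8, 31.4 and 30.5 CPM and SFSN-TC 26.9, 28.6 and 26.0 CPM. Of the 18 SFSN libraries 16 lay above all of Control, and 1 library each of SFSN-EC and SFSN-TC overlapped it. The fold changes were small, from 0.14 ± 0.09 in SFSN-TC to 0.52 ± 0.09 in SFSN-FB, with a mean of 0.32 ± 0.07. The call in SFSN-EC (0.25 ± 0.09) was lost in 9 of its 29 alternatives, among them DESeq2 (0.24) and leaving out SFSN-EC 2 (0.20), SFSN-EC 3 (0.22), Control 1 (0.22) or Control 2 (0.25). The calls in SFSN-Ot and SFSN-Neu were lost in limma on log2 TPM with a pseudocount of 0.1 (0.39 and 0.45) or 1 (0.33 and 0.38), where the fold changes were larger, and SFSN-TC was called under total-count scaling (0.33).

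Apln encodes apelin, a peptide that tip cells secrete and that acts on the receptor Aplnr. It had 14, 9 and 6 counts in Control, or 1.76, 1.13 and 0.756 CPM. SFSN-Adipo was highest with 6.54, 3.82 and 5.29 CPM, followed by SFSN-TC with 4.11, 3.94 and 4.24 CPM and SFSN-Ot with 3.54, 2.62 and 4.76 CPM. The lowest SFSN groups were SFSN-FB (3.95, 3.22 and 3.47 CPM), SFSN-EC (3.05, 4.03 and 3.13 CPM) and SFSN-Neu (3.48, 3.06 and 2.56 CPM). All 18 SFSN libraries were above all of Control, while neighbouring SFSN groups overlapped. The mean fold change was 1.62 ± 0.24, or 3.07-fold, and the groups ranged from 1.31 ± 0.30 in SFSN-Neu to 2.09 ± 0.28 in SFSN-Adipo. With so few counts in Control the size is imprecise. Aplnr itself had 0 to 1 counts in all 21 libraries.

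**Figure D3:**
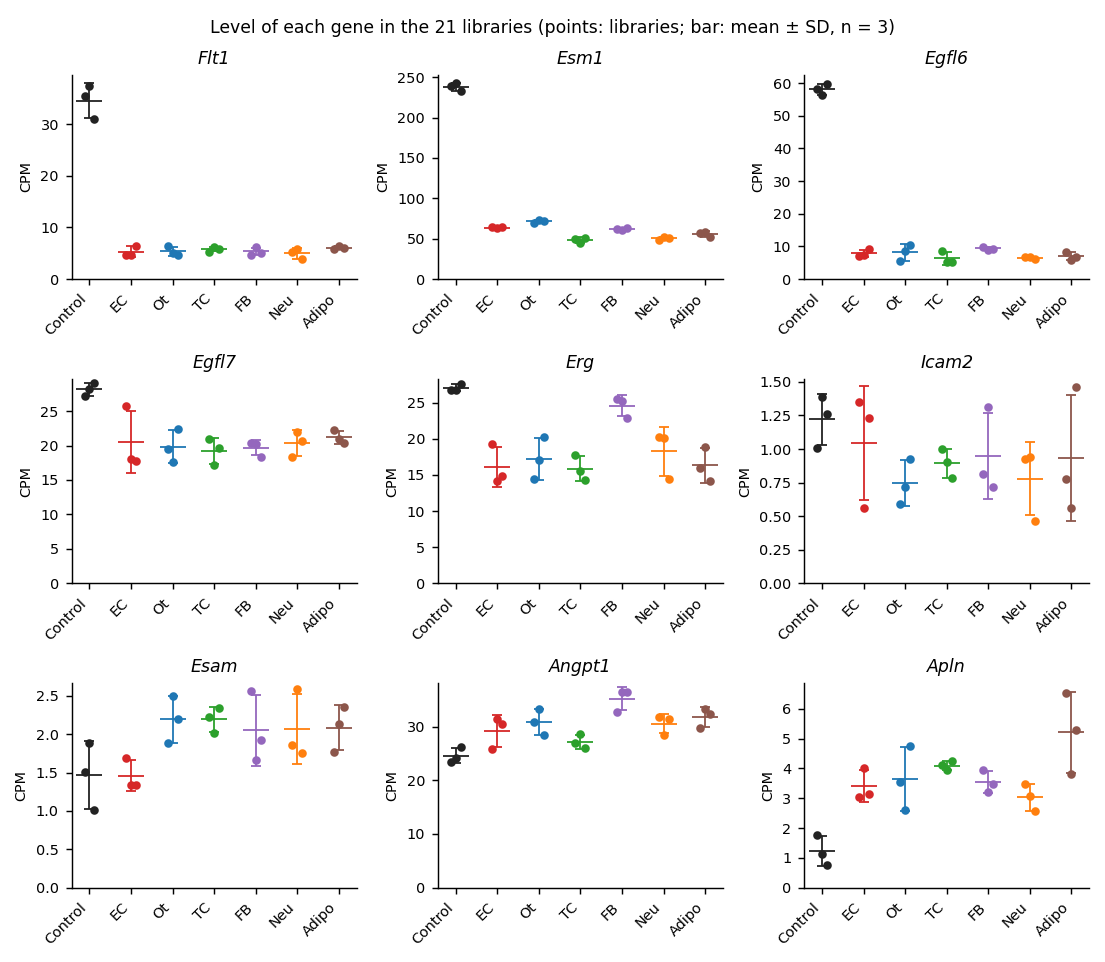
CPM of the 9 genes in each of the 21 libraries (points) with the mean ± SD of the 3 libraries of a group. All SFSN libraries lie far below Control for Flt1, Esm1 and Egfl6, with Esm1 differing between SFSN groups (69.8 to 73.5 CPM in SFSN-Ot, 44.8 to 51.2 CPM in SFSN-TC), Erg lies nearest Control in SFSN-FB, and Icam2 and Esam overlap Control in part of the groups.

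The genes whose levels most resembled each member over the 21 libraries are given as a description by Pearson's r of log2 CPM, with r over the 18 SFSN libraries beside it, because Control stands apart and carries most of the first value. For Flt1 they were Ccdc80 (0.977, and 0.181 among SFSN), Ddah1 (0.968, and -0.007) and Kifc3 (0.968, and 0.314), so Flt1 shared little with them within SFSN. Esm1 was most like Ddah1 (0.984, and 0.716), Cdh3 (0.982, and 0.763) and Eif1a (0.979, and 0.681). Egfl6 was nearest to Ddah1 (0.977, and 0.596), Bmp6 (0.972, and 0.726) and Esm1 (0.967, and 0.518). For Erg, Fgf14 (0.896, and 0.863), Atf5 (0.871, and 0.775) and Arhgap22 (0.855, and 0.827) came first, with values that held within SFSN. Egfl7 had Dnajc3 (0.935, and 0.837), Chid1 (0.928, and 0.876) and LOC301124 (0.922, and 0.829). The nearest to Angpt1 were Cacna1a (0.900, and 0.837), Atp2a3 (0.879, and 0.820) and LOC100912479 (0.874, and 0.820), and to Apln they were Foxf2 (0.923, and 0.641), Cish (0.914, and 0.778) and Kctd3 (0.891, and 0.575). For the sparse Icam2 and Esam no gene exceeded 0.680 and 0.756, reached by Efemp1 and Kat8. The libraries share depth and composition, and genes alike in this way were searched among 6659.

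The other genes of vessel growth came from 9 lists written from general knowledge, with 145 distinct genes in the table and 135 tested. The lists were chosen with earlier results of these data known, so their counts and p-values are descriptive and not independent tests. Here "rose" and "fell" mean an adjusted p under 0.05 (Benjamini-Hochberg over all genes, edgeR) for the mean of the 6 SFSN groups against Control, with 18 libraries against 3. The median over all genes tested was 0.01, and 23.5% of them rose and 22.4% fell. In SFSN-EC against the other SFSN groups 3.17% of all genes were called higher and 2.84% lower.

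Among endothelial surface and junction genes 8 of 16 tested rose and 5 fell, with a median of 0.12. Low but detected markers moved both ways. Cd93 (0.99 ± 0.19, adjusted p = 0.00038) and the junction gene Jam2 (1.44 ± 0.24, adjusted p = 6.93e-05) rose. The junction gene F11r fell (-0.99 ± 0.20, adjusted p = 0.000483), from 24 to 25 counts in Control to a median of 13.5 in SFSN. Clec14a, an endothelial lectin-like receptor, had 3 to 8 counts in Control and a median of 22.5 in SFSN, a fold change of 1.80 ± 0.26 (adjusted p = 1.52e-05). Cd34, a sialomucin of endothelium and blood progenitors, went from 3 to 11 counts to a median of 24.0, a fold change of 1.77 ± 0.36 (adjusted p = 0.000569). Ace was called with 0 to 3 counts in Control and 1 to 16 in SFSN, but its adjusted p of 0.0498 rose above 0.05 in 17 alternatives, up to 0.202 without Control 1. The arterial gap junction genes fell: Gja4 by 1.49 ± 0.15 on the log2 scale, from 10.6 to a median of 3.67 CPM, and Gja5 by 0.89 ± 0.07. Eng rose by 0.12 ± 0.03 (adjusted p = 0.00774) and Cav1, the abundant coat protein of caveolae, fell by 0.66 ± 0.03. In SFSN-EC relative to the mean of the other 5 SFSN groups 1 of the 16 was called, Cav1 at 0.14 ± 0.03. This call was lost without any 1 of the SFSN-EC libraries at 0.13 to 0.15. It was also lost in limma on log2 TPM with a pseudocount of 0.1 or 1. Against Control Cav1 was at -0.54 in SFSN-EC and less reduced in SFSN-TC (-0.44).

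Of 19 angiogenic ligands 7 rose and 8 fell (median -0.04). Angptl4, a secreted inhibitor of lipoprotein lipase that is induced by fatty acids and low oxygen, rose by 2.32 ± 0.09, from 7.56 to a median of 45.7 CPM. Angpt2, the context-dependent antagonist of Angpt1, rose by 1.29 ± 0.22 (adjusted p = 8.81e-05) from 5 to 13 counts to a median of 22.0, and Figf, the gene of vascular endothelial growth factor D, by 0.73 ± 0.05. The Notch ligand Jag1 rose by 0.92 ± 0.06, and the growth factor gene Ereg by 1.87 ± 0.41 from 1 to 5 counts. Bmp4 fell by 1.56 ± 0.11 and Edn1, which encodes the vasoconstrictor endothelin, by 1.49 ± 0.05, from 78.2 to a median of 26.1 CPM. The growth factor genes Fgf2 (-1.03 ± 0.17) and Hbegf (-0.91 ± 0.04) fell as well. Adm (-0.04 ± 0.14) and Angpt4 (0.04 ± 0.07) were not called. SFSN-EC exceeded the average of the other 5 groups in 4 of the 19, led by Angptl4 at 1.28 ± 0.06 (adjusted p = 1.52e-09) and Angpt4 at 0.26 ± 0.07 (adjusted p = 0.0306). Against Control Angptl4 was at 3.38 in SFSN-EC, close to SFSN-Adipo (3.16) and SFSN-TC (3.15), and between 1.17 and 1.73 in the other groups. The Angpt4 call was lost in 6 alternatives. Among them were leaving out SFSN-EC 1 or SFSN-EC 2 (0.22 each), DESeq2 (0.26) and limma on log2 TPM with a pseudocount of 0.1 (0.22) or 1 (0.19).

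Receptors for such ligands had 6 of 18 higher and 8 lower, with a median of -0.21. Cd36, the scavenger receptor that binds thrombospondin and fatty acids, rose by 1.68 ± 0.10 and the endothelin receptor Ednrb by 1.12 ± 0.11. Both receptors of Cxcl12 fell, Cxcr4 by 1.15 ± 0.06 and Ackr3 by 1.14 ± 0.04, as did Cxcl12 itself by 0.87 ± 0.02, from 1400 to a median of 750 CPM. Flt4, the relative of Flt1 that binds vascular endothelial growth factors C and D, was not called at -0.33 ± 0.17 (adjusted p = 0.127). SFSN-EC was above the average of the other 5 groups in 4 of the 18, with Ednrb at 0.54 ± 0.09 and Cd36 at 0.47 ± 0.08 the largest. SFSN-Adipo was as high or higher, at 1.69 against Control for Ednrb (1.57 in SFSN-EC) and 2.08 for Cd36 (2.07 in SFSN-EC).

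Transcription factors of endothelium had 3 of 19 higher, 7 lower and 9 not called, with a median of -0.15. The shear-stress factor Klf2 fell by 0.70 ± 0.09, Foxf1 by 0.92 ± 0.13 and Lyl1 by 0.65 ± 0.20 (adjusted p = 0.0135). Lyl1 had 32 to 52 counts in Control, and its call was lost without Control 2 at -0.39 and under total-count scaling at -0.46. The Notch target Hey1 rose by 0.59 ± 0.11, although it was lower than Control in SFSN-FB. Fli1 and Ets1, ETS factors related to Erg, were not called at -0.03 ± 0.07 and -0.06 ± 0.06. In SFSN-EC relative to the mean of the other SFSN groups Foxc2 stood at 0.33 ± 0.08 and Foxc1 at 0.29 ± 0.06, both called, and without SFSN-EC 1 both calls were lost at 0.22 and 0.21. The Foxc2 call was also lost without SFSN-EC 2, at 0.35.

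Vascular basement membrane and inhibitor genes fell in the main, 8 of 14 with 2 higher and a median of -0.40. Fbln5, an elastic fibre protein that restrains sprouting, fell by 0.94 ± 0.03, the laminin gene Lama5 by 0.88 ± 0.11 and the collagen gene Col4a2 by 0.64 ± 0.04. The 2 that rose were the protease gene Adamts9, by 1.43 ± 0.14, and the collagen gene Col18a1, by 0.60 ± 0.03 from 693 to a median of 1030 CPM. Adamts1, a protease that sequesters vascular endothelial growth factor, fell by 0.45 ± 0.06 on average. Set against the average of the remaining 5 groups, SFSN-EC was at -0.25 ± 0.06 (adjusted p = 0.017), a call lost without SFSN-EC 1 at -0.15. The call was also lost in limma on log2 TPM with a pseudocount of 0.1 (-0.30) or 1 (-0.29). SFSN-EC was not the lowest group. Against Control Adamts1 stood at -0.66 in SFSN-EC, below SFSN-FB (0.38) and SFSN-Ot (0.02) but above SFSN-TC (-0.73), SFSN-Adipo (-0.83) and SFSN-Neu (-0.88). Hypoxia targets were lower as well: 12 of 17 fell and 2 rose (median -0.35). Among those that fell were Ero1a, an oxidase of protein folding, at -0.67 ± 0.05, Ankrd37 at -0.78 ± 0.16 and Hk2, a hexokinase, at -0.57 ± 0.08. Those that rose were Angptl4 and Car9, a carbonic anhydrase, the latter at 0.40 ± 0.08. The Hk2 call was lost in limma on log2 TPM with a pseudocount of 0.1 (-0.37, adjusted p = 0.0598) or 1 (-0.34, adjusted p = 0.0581). For the stress gene Ddit4 SFSN-EC stood 0.35 ± 0.08 above the mean of the other 5 groups (adjusted p = 0.0193). That call was lost without SFSN-EC 1 (0.33) or SFSN-EC 2 (0.30), and in limma on log2 TPM with a pseudocount of 0.1 (0.31) or 1 (0.30). Against Control Ddit4 was at 0.16 in SFSN-EC, near SFSN-TC (0.13) and below SFSN-Adipo (0.27), and the lowest group was SFSN-Ot (-0.86).

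**Figure D4:**
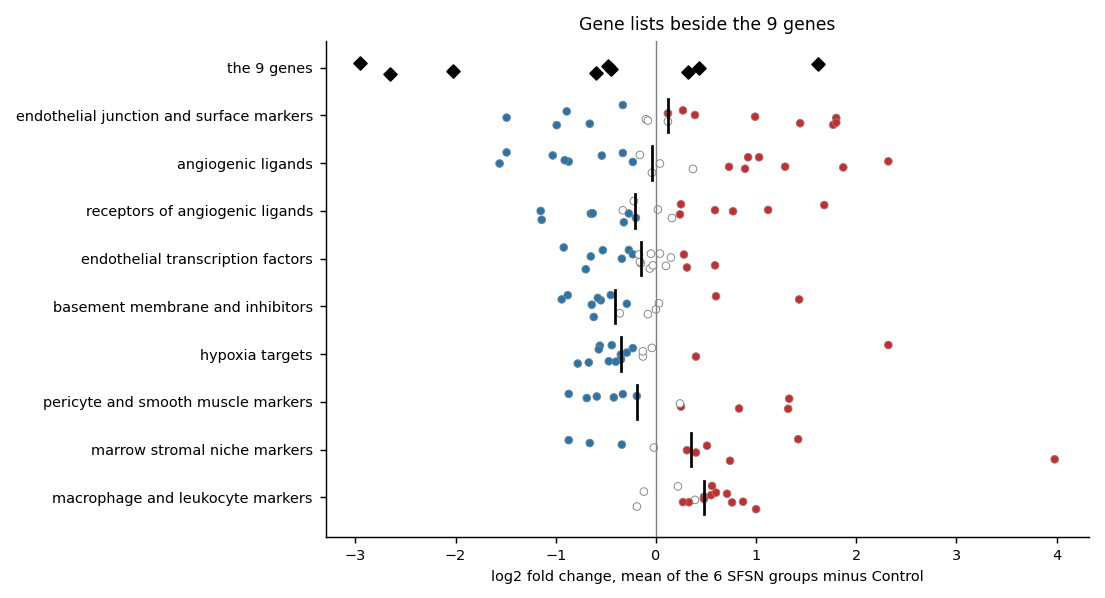
Log2 fold change of the mean of the 6 SFSN groups minus Control for the tested genes of each list (red higher, blue lower, white not called; bar, list median) and for the 9 genes (diamonds). Hypoxia targets lie mostly below 0 and macrophage markers mostly above.

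Markers of other cells moved in the same libraries. Of 15 macrophage and leukocyte markers tested 11 rose and the other 4 were not called (median 0.48). Their summed level was 791 to 808 TPM in Control and 875 to 1490 TPM in SFSN, and Cd163 had at most 1 count. Lyz2 was the largest part of this sum, with a mean of 526 TPM in Control and a median of 682 TPM in SFSN. Itgam, the integrin of myeloid cells, rose by 1.00 ± 0.12, the phagocyte oxidase gene Cybb by 0.87 ± 0.24, the actin regulator gene Coro1a by 0.76 ± 0.09 and Csf1r, the receptor of macrophage survival, by 0.71 ± 0.04. SFSN-EC was below the average of the other 5 groups in 6 of the 15, with Itgam at -0.57 ± 0.12 and Cd53 at -0.53 ± 0.08. SFSN-TC was lower still for 5 of these 6, such as Cd53 (-0.29 against Control, and 0.10 in SFSN-EC) and Coro1a (-0.67, and 0.32 in SFSN-EC), the exception being Itgam (0.61, and 0.53 in SFSN-EC). Pericyte and smooth muscle markers had 4 of 11 higher and 6 lower, with the channel genes Abcc9 (1.32 ± 0.16) and Kcnj8 (1.33 ± 0.18) higher and the contractile gene Cnn1 lower (-0.87 ± 0.08). Their summed level was 15300 to 15700 TPM in Control and 10800 to 12600 TPM in SFSN. Most of this sum was Acta2, with a mean of 11900 TPM in Control and a median of 8920 TPM in SFSN. In SFSN-EC against the other SFSN groups 1 of the 11 was called, Lmod1 at 0.15 ± 0.03, a call lost in 3 alternatives. Marrow niche markers had 6 of 10 higher and 3 lower. The fat hormone gene Adipoq, at 3.98 ± 0.16, and the haptoglobin gene Hp, at 1.42 ± 0.15, rose most. Cxcl12 (-0.87 ± 0.02), Ebf3 (-0.66 ± 0.10) and Foxc1 (-0.34 ± 0.06) fell, and Lepr was not called (-0.02 ± 0.29). The list summed to 1100 to 1200 TPM in Control and 1020 to 1450 TPM in SFSN. SFSN-EC was above the average of the other 5 groups in 4 of the 10, with Adipoq at 0.45 ± 0.09 and Foxc1 at 0.29 ± 0.06 the largest. Both calls were lost without SFSN-EC 1, at 0.29 and 0.21. Against Control Adipoq was higher in SFSN-TC (5.07) than in SFSN-EC (4.35). The part of these cells in the values of the 9 genes was not tested.

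The scaling between libraries bears on small changes. Under total-count scaling the median gene stood at 0.20 instead of 0.01, and of the genes called 2914 were higher and 764 lower, in place of 1563 and 1493 (79.2% against 51.1% of the calls higher). The angiogenic ligands then had 9 higher and 7 lower, the receptors 7 and 6, the transcription factors 5 and 4, the basement membrane genes 3 and 7, and the hypoxia targets 2 and 8. None of the called fold changes of the 9 genes turned in sign under any of the 29 alternatives.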

How the data were processed

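Total RNA of 21 libraries was sequenced. Reads were trimmed with SOAPnuke 2.2.1, aligned with Bowtie2 2.4.5 to a set of known and newly identified transcripts and quantified with RSEM 1.3.1, set to reads of the reverse strand, per the deposited processing notes. The submitters' processing notes name build Rnor_6.0. The deposited table held, per the file headers, expected counts (84.4% of nonzero values whole), FPKM and TPM. Its 9998 genes run alphabetically to Map2k1, and genes beyond that point were not analysed here. The FPKM that the authors deposited were read but not tested, and the deposited TPM served levels between genes and an alternative test. The authors' 21 columns of normalized counts and 28 columns of group means were not used.

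Expected counts were rounded, filtered with filterByExpr (6659 genes left), scaled by TMM and fitted with 1 mean per group by the quasi-likelihood method of edgeR 4.0.16 under R 4.3.3 (14 residual degrees of freedom, a biological variation of 11.8% between replicates). P-values were adjusted over all genes tested by Benjamini-Hochberg, with calls under 0.05. Each SE was obtained from the log2 fold change and the F of its test. DESeq2 1.42.0 and limma 3.58.1 served alternatives. The method was tested on simulated data. The members and lists were chosen with earlier results of these data known. Named from each list were up to 4 called genes of largest change, up to 2 called in SFSN-EC against the other SFSN groups, and a few of related role chosen after their values were seen. The replicate numbers were not used: same-numbered libraries of different groups deviated together about as much as others (median correlation 0.00678 against 0.00669). The correlation was over 0.1 in 17 of 63 same-numbered pairs and in 31 of 126 other pairs.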

Additional observations from a re-analysis of the deposited data

Results flagged for a closer look

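The 52 genes looked at were the 9 genes and the list genes selected by size of change. For 6 of them, all 3 libraries of at least 1 SFSN group lay above all of Control while all 3 of another lay below. Hey1 was at 1.16 in SFSN-TC and -0.45 in SFSN-FB (log2 fold change against Control), and Adamts1 at 0.38 in SFSN-FB and -0.88 in SFSN-Neu. Ddit4, a stress-induced inhibitor of growth signalling, was at 0.27 in SFSN-Adipo and -0.86 in SFSN-Ot. The leukocyte markers Cd53, Coro1a and Csf1r were below Control in SFSN-TC alone, at -0.29, -0.67 and -0.28, while Cd53 reached 1.07 in SFSN-FB, and SFSN-Neu held the highest Coro1a and Csf1r at 1.63 and 1.52. The joint test of a difference among the 6 SFSN groups gave adjusted p-values (edgeR) from 4.88e-06 (Ddit4) to 4.62e-13 (Csf1r). The value of Ddit4 in SFSN-Adipo was itself not called against Control (adjusted p = 0.0694, edgeR). None of the 9 genes moved in opposite directions in this way.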

How the results depend on the processing

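The numbers of genes called per comparison were recomputed under up to 29 alternatives, 21 of which left out 1 library. So were the fold changes of the members and of the list genes selected by size of change. For these list genes this covered the mean of the SFSN groups against Control and SFSN-EC against the other SFSN groups. Other list genes given with fold changes, such as Cd93, Jam2, Angpt2, Flt4 and Eng, were not recomputed individually. The 5 genes called lower and the 2 called higher for the mean of the SFSN groups kept these counts without any single library. Their mean fold changes ranged from -2.72 to -1.57 for Flt1, -2.04 to -1.83 for Esm1, -2.99 to -2.39 for Egfl6, -0.51 to -0.29 for Egfl7, -0.62 to -0.41 for Erg, 0.29 to 0.51 for Angpt1 and 0.66 to 1.99 for Apln, and the smallest sizes for Flt1, Egfl6 and Apln came from limma on log2 TPM plus 1, which understates changes of low genes. The number of genes called in SFSN-EC against Control (2215) was 1381 with only the 6 libraries of these groups, a fit with fewer samples. Leaving out libraries gave 1850 to 2426 there and 250 to 443 for SFSN-EC against the other SFSN groups (400), with 250 without SFSN-EC 2 and 253 without SFSN-EC 3. The Esm1 call in that comparison was lost in 14 alternatives. With the replicate number as a block, a pairing the data did not bear out, 2961 genes were called for the mean of the SFSN groups instead of 3056, and 340 for SFSN-EC against the other SFSN groups. Depth limits Icam2, Esam and Apln, which had 4 to 59 counts per library.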
